A study of Rattus norvegicus with 304 samples.

Results

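Cmkor1 is the older symbol of Ackr3, an atypical chemokine receptor also known as Cxcr7 and Rdc1, and it was 1 of the 50 targets measured in this study of rat liver. Its rows were taken by gene name from the authors' deposited tables of both PCR platforms, in all groups. It was chosen by its measured fold changes over dose, time and strain in these tables, so those values are described here without any test. Male rats of 10 to 12 weeks had received TCDD, a dioxin, or its corn oil vehicle by oral gavage, as a single dose. The strains were Long-Evans, which the study's design text calls sensitive to TCDD, and Han/Wistar, which it calls resistant; the labels name no engineered allele in either. Liver RNA was reverse transcribed and quantified on the OpenArray, which runs preloaded assays in very small wells, and on the 7900HT, a plate-based real-time PCR instrument. The OpenArray ran 150 samples and the 7900HT 154, in 36 groups per platform of 3 to 7 samples each. The labels call the replicates biological, and 150 sample titles occurred on both, so that the 2 platforms measured largely the same animals.

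The Long-Evans groups were TCDD at 0.001, 0.01, 0.1, 1, 10, 50, 100 and 1000 µg/kg at 19 h, TCDD at 100 µg/kg at 3, 6, 10, 96 and 240 h, and corn oil at 19, 96 and 240 h. The Han/Wistar groups were TCDD at 0.001, 0.01, 0.1, 1, 10, 100, 1000 and 3000 µg/kg at 19 h, TCDD at 100 µg/kg at 1.5, 3, 6, 10, 96, 240 and 384 h, and corn oil at 1.5, 19, 96, 240 and 384 h. The authors' deposited table of each platform gives 1 value per gene and group, read here as the log2 fold change over the strain's own corn oil group at 19 h, which is 0 by construction. The header does not state the log base. No value per animal was used, so no error between animals can be given, and the 2 corn oil groups of Long-Evans and 4 of Han/Wistar at times other than 19 h give the only measure of spread without TCDD.

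TCDD is a ligand of AHR, the aryl hydrocarbon receptor, which waits in the cytosol, moves to the nucleus, pairs with ARNT and binds DNA at the core letters GCGTG. Cyp1a1, Cyp1b1, Tiparp, Nqo1 and the repressor Ahrr are textbook targets of this pathway in liver. ACKR3 binds the chemokines CXCL12 and CXCL11 without activating the usual G proteins. It recruits arrestins and takes the chemokine into the cell, which lowers the amount that reaches the signalling receptor CXCR4. In mouse liver the receptor has been described on sinusoidal endothelial cells. None of the 11 genes listed for this chemokine axis, among them Cxcl12, Cxcl11, Cxcr4 and Arrb2, was on either platform, so the ligands and the partner receptor of Cmkor1 are not described here. None of 23 marker genes of hepatocytes, endothelial cells, macrophages, leukocytes, stellate cells and bile duct cells was on either platform, so the labelled tissue could not be checked against markers. In bulk liver RNA, more cells that carry a transcript and more transcript per cell cannot be told apart.

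In the RefSeq annotation of GRCr8, Ackr3 (gene ID 84348) lies on chromosome 9, from 98247300 to 98258877. The study's files name no genome build, and these positions come from RefSeq only. Its promoter window, 250 bases before and 50 bases from the start site onward, is shown because Cmkor1 was followed after a ligand of AHR, whose core motif is in capitals. The window is chr9:98247104-98247403 on the plus strand, with the start site at 98247354, which is 54 bases inside the annotated gene.
Ackr3 promoter: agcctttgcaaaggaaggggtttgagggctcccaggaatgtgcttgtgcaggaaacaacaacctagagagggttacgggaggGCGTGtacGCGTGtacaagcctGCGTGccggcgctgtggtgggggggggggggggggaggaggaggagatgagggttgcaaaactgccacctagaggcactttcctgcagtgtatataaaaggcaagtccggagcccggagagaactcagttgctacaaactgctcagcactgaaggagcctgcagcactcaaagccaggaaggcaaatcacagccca
The capitals mark GCGTG, which a search of both strands found 3 times, at 168, 160 and 146 bases before the start site, all on the plus strand. At least 1 copy on either strand occurred in 29.7% of the 33469 RefSeq rat promoters of this length, and at least 3 copies in 3.59%. Among the 43 panel genes with a promoter in the same table, 5 had at least 3 copies, namely Ackr3, Ahrr, Gfer, Nudt4 and Pomp. The longer form TNGCGTG, which contains GCGTG, was not in the Ackr3 window and occurred in 4.89% of all promoters. These are matches of letters and not evidence of binding.

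The time arm asked how the abundance of each target developed after 100 µg/kg TCDD. In Long-Evans liver Cmkor1 stayed within a few-fold of corn oil through 19 h and then stood far higher at 96 and 240 h. In Han/Wistar liver the late values were a few-fold above corn oil, and those at 96 and 384 h were near the value at 3 h. In the authors' deposited table of the OpenArray, its log2 fold change in Long-Evans liver was 1.95 (3 h), 0.83 (6 h), 1.11 (10 h) and 1.69 (19 h) after TCDD. At 96 h the same table gave 5.13 and at 240 h 6.73 (n = 4 and 5 samples labelled), which are 34.9-fold and 106-fold over corn oil at 19 h in the authors' deposited table. Long-Evans corn oil liver stood at 0.76 (96 h) and 0.35 (240 h) in the authors' deposited table, so both late TCDD groups lay far outside the corn oil range, while the groups from 6 to 19 h lay above it by less than 1 log2 unit.

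In Han/Wistar liver the authors' deposited table of the OpenArray gave log2 fold changes of -0.22 (1.5 h), 1.34 (3 h), 0.73 (6 h), 1.11 (10 h) and -0.53 (19 h) after 100 µg/kg TCDD. Later values in the authors' deposited table were 1.76 (96 h), 2.67 (240 h) and 1.41 (384 h), with 240 h the highest, a fold of 6.39. The Han/Wistar corn oil groups stood at -1.03 (1.5 h), -0.34 (96 h), 0.12 (240 h) and -0.67 (384 h) in the authors' deposited table. The TCDD groups at 1.5 and 19 h thus lay inside the corn oil range of -1.03 to 0.12, and the groups at 3, 6 and 10 h and the 3 groups after 19 h lay above it.

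**Figure D1:**
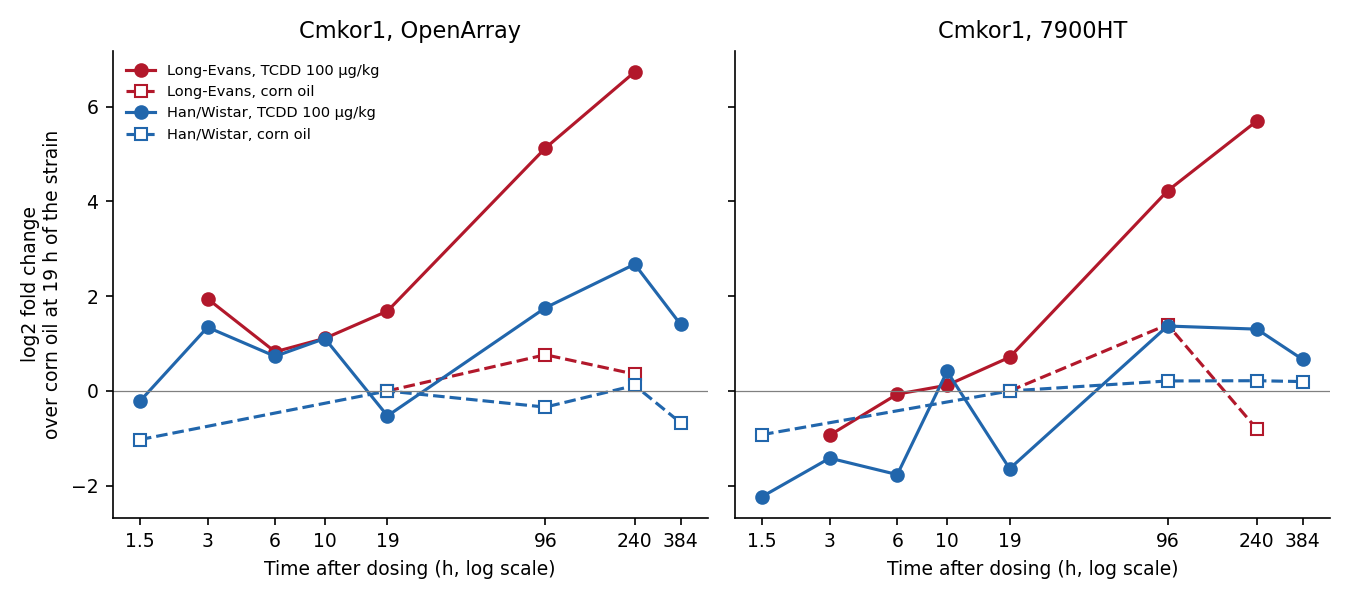
Cmkor1 log2 fold change over the strain's own corn oil group at 19 h (vertical) against hours after dosing (horizontal, log scale) in the authors' deposited tables, on the OpenArray and the 7900HT. Filled circles are 100 µg/kg TCDD and open squares corn oil, 1 deposited value per group. On the OpenArray the Long-Evans TCDD line reaches 5.13 (96 h) and 6.73 (240 h), and the Han/Wistar line peaks at 2.67 (240 h).

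With the corn oil group of each time as baseline, the OpenArray log2 difference of TCDD from corn oil in Long-Evans liver was 1.69 (19 h), 4.36 (96 h) and 6.38 (240 h). The last is 83.1-fold. In Han/Wistar liver the difference was 0.81 (1.5 h), -0.53 (19 h), 2.10 (96 h), 2.56 (240 h) and 2.08 (384 h). At 240 h both baselines thus gave similar values, 6.38 against 6.73 in Long-Evans and 2.56 against 2.67 in Han/Wistar. The standard deviation of Cmkor1 over the corn oil groups was 0.38 in Long-Evans (3 groups) and 0.47 in Han/Wistar (5 groups) on the log2 scale. Both exceeded the median over all targets, 0.14 and 0.21, and ranked 8 of 49 and 6 of 47 from the most variable. The corn oil groups of Han/Wistar alone spanned more than 1 log2 unit for Cmkor1.

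Many targets were at least 2-fold higher in the same groups, and being past 2-fold was itself common on this panel of chosen genes. Of 49 OpenArray targets in Long-Evans liver, 30.6% stood at least 2-fold above corn oil at 3 h, 36.7% (19 h), 51% (96 h) and 51% (240 h), and Cmkor1 was among them each time. In Han/Wistar the share was 26.5% (3 h), 30.6% (19 h), 34.7% (96 h) and 32.7% (240 h), with Cmkor1 among them at 3, 96 and 240 h. From the highest value down, Cmkor1 ranked 9 (3 h), 12 (19 h), 6 (96 h) and 6 (240 h) in Long-Evans. In Han/Wistar it ranked 11 (3 h), 37 (19 h), 12 (96 h) and 9 (240 h).

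The change between 19 h and 240 h after 100 µg/kg can be taken within the TCDD groups, where the corn oil group they share drops out. On the OpenArray, Cmkor1 at 240 h exceeded its 19 h value by 5.05 log2 units in Long-Evans, the largest difference of 49 targets, followed by Ahrr at 3.83 and Scn4b at 3.79. The median target differed by 0.50. In Han/Wistar the Cmkor1 difference was 3.20, ranking 3 after Ahrr at 5.62 and Scn4b at 5.61, against a median of 0.05. The low 19 h value of Han/Wistar enters this difference: with 10 h in place of 19 h, which was chosen after seeing the data, it was 1.57 in Han/Wistar and 5.62 in Long-Evans. By 96 h the difference from 19 h was 3.44 in Long-Evans, ranking 2 of 49, and 2.28 in Han/Wistar, ranking 4 of 49. On the 7900HT the difference of 240 h from 19 h was 4.99 in Long-Evans, ranking 3 of 39, and 2.95 in Han/Wistar, ranking 2 of 39. The median target there differed by 0.29 in Long-Evans and 0.78 in Han/Wistar. Without centring, the Cmkor1 difference of 240 h from 19 h was therefore of similar size on both platforms. Set against the median target, it was smaller on the 7900HT in Han/Wistar.

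**Figure D2:**
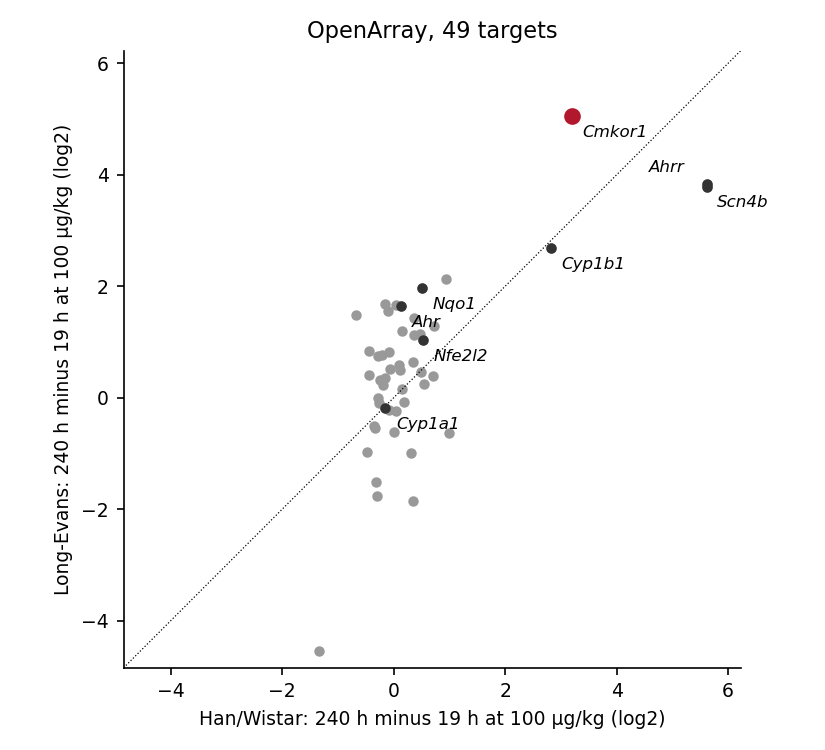
Difference between 240 h and 19 h after 100 µg/kg TCDD for 49 OpenArray targets, Long-Evans (vertical, log2 units) against Han/Wistar (horizontal, log2 units), from the authors' deposited table. Each point is 1 target and the dotted line marks equal values. Cmkor1, in red, has the highest Long-Evans difference, 5.05, against 3.20 in Han/Wistar.

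The comparison of strains asked where the sensitive and the resistant rats differ. On the OpenArray the log2 difference of Long-Evans minus Han/Wistar after 100 µg/kg was 0.60 (3 h), 0.10 (6 h), 0.0040 (10 h), 2.21 (19 h), 3.37 (96 h) and 4.06 (240 h). On that platform the strains thus differed from 3 to 10 h by less than the range of the Han/Wistar corn oil groups, and from 19 h on by more. At 19 h the difference was narrower at 10 and 1000 µg/kg, 0.35 and 0.16. At 96 h and at 240 h the difference after 100 µg/kg was the widest positive one of 49 targets, whose medians were 0.31 and 0.55. With each strain set against its own corn oil of the same time, the difference was 2.27 (96 h), ranking 1 of 49, and 3.82 (240 h), ranking 3 of 49. On the 7900HT the difference over corn oil at 19 h was 0.48 (3 h), 1.70 (6 h), -0.29 (10 h) and 2.35 (19 h). The Han/Wistar corn oil groups there lay from -0.92 to 0.22, so the 6 h difference was already wider than their range. Later the 7900HT difference was 2.85 (96 h), ranking 4 of 38, and 4.39 (240 h), ranking 1 of 39. Over corn oil of the same time it was 1.66 (96 h), ranking 8 of 38, and 5.41 (240 h), ranking 1 of 38. The change of corn oil liver since 19 h differed between the strains by 1.11 (96 h) and 0.24 (240 h) on the OpenArray and by 1.19 (96 h) and -1.02 (240 h) on the 7900HT. The level of corn oil liver is not compared between strains, since each strain has its own baseline. Long-Evans and Han/Wistar differ at many loci besides Ahr, and their parts in this difference cannot be told apart.

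The dose arm asked from which dose a target responds at 19 h. Cmkor1 was at most a few-fold above corn oil there, at the higher doses and in Long-Evans liver more evenly so. In the authors' deposited table of the OpenArray, its log2 fold change in Long-Evans liver was -0.55 at 0.001, -1.10 at 0.01, -0.50 at 0.1, 0.17 at 1, 1.05 at 10, 1.33 at 50, 1.69 at 100 and 1.25 at 1000 µg/kg. The 4 doses from 10 µg/kg up were all at least 2-fold above corn oil, and the 3 lowest doses were all below 0. By linear interpolation on log10 dose, 50% of the log2 value at 100 µg/kg was crossed at 5.82 µg/kg. This dose was 9.36 µg/kg after centring on the group mean and 91.9 µg/kg on the 7900HT, and the 2-fold dose of 10 µg/kg was lost after centring on the mean or the median and on the 7900HT.

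In Han/Wistar liver the authors' deposited table of the OpenArray gave -0.98 at 0.001, -0.05 at 0.01, 0.24 at 0.1, -1.11 at 1, 0.70 at 10, -0.53 at 100, 1.08 at 1000 and 0.54 at 3000 µg/kg. No ordered pattern with dose was visible, and only 1000 µg/kg reached 2-fold. No dose met the 2-fold rule there, and no 50% point was defined, since the value at 100 µg/kg was below 0. With the highest value, 1.08, as the maximum, 50% was first crossed at 8.21 µg/kg, with the value at 100 µg/kg again below it. Over the 7 doses shared by the strains, Long-Evans minus Han/Wistar lay between -1.06 and 2.21, with a median of 0.35, and was above 0 at 5. The widest difference, 2.21, was at 100 µg/kg, where Han/Wistar liver stood below 0; at the neighbouring shared doses, 10 and 1000 µg/kg, it was 0.35 and 0.16.

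**Figure D3:**
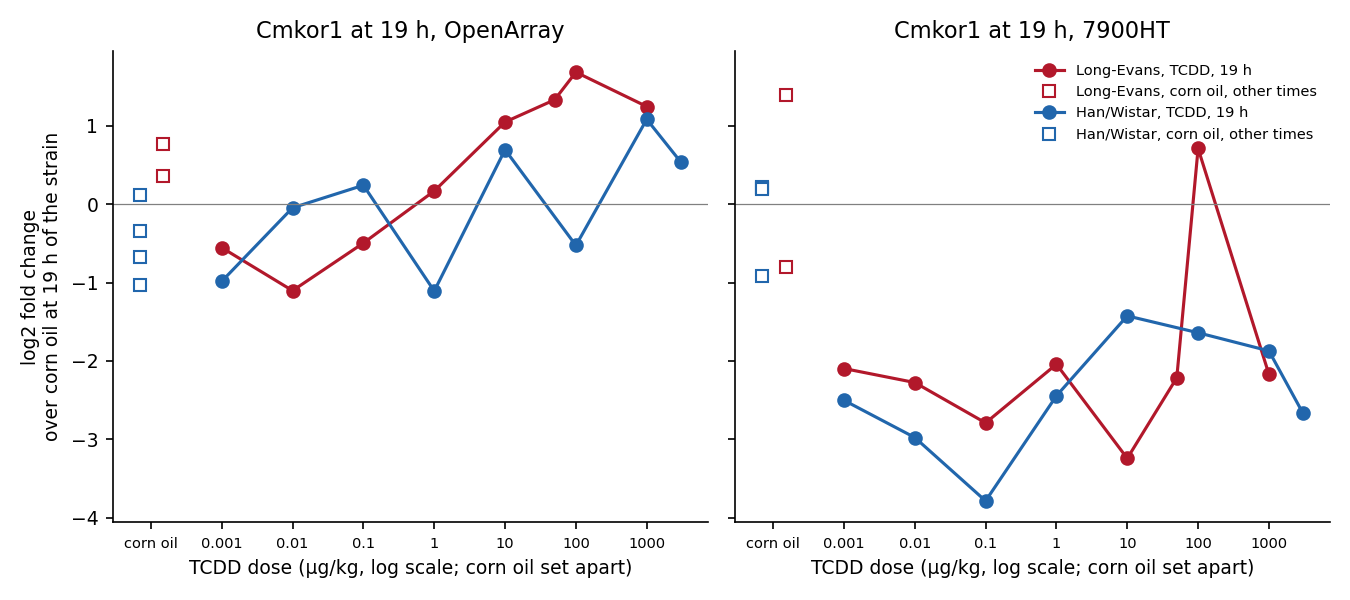
Cmkor1 log2 fold change at 19 h (vertical) against TCDD dose in µg/kg (horizontal, log scale) in the authors' deposited tables, on the OpenArray and the 7900HT. Filled circles are TCDD groups, and the open squares at the left are the corn oil groups of other times. On the OpenArray the Long-Evans line passes 1 from 10 µg/kg up, and on the 7900HT 15 of the 16 TCDD groups lie below 0.

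Members of the AHR battery, 9 listed genes that were all on the OpenArray, mostly held 2-fold from a dose below 10 µg/kg. In Long-Evans, 8 of the 9 held at least 2-fold from some dose upward at 19 h, 7 of them from a dose below 10 µg/kg, and the counts in Han/Wistar were the same. Over all 49 targets, 38.8% in Long-Evans and 32.7% in Han/Wistar held 2-fold from some dose upward, and 16.3% and 14.3% did so from a dose below 10 µg/kg. Cyp1a1, which oxidises aromatic pollutants, held 2-fold from 0.01 µg/kg in both strains, and that dose gave 1.32 in Long-Evans liver and 1.91 in Han/Wistar liver per the authors' deposited table of the OpenArray. These values lay inside the range of its own corn oil groups, which reached 2.16 in Long-Evans liver and 3.47 in Han/Wistar liver per the authors' deposited table, and from 0.1 µg/kg its values lay above it. Cyp1a2, its hepatic relative, held 2-fold from 0.1 µg/kg in both strains. Tiparp, an ADP-ribosyltransferase that represses AHR, held it from 10 µg/kg in Long-Evans and from 1 µg/kg in Han/Wistar. Ugt1a1, which conjugates bilirubin, held 2-fold at no dose in either strain. Some low doses of Cyp1b1 and Ahrr in Han/Wistar also lay inside the range of their corn oil groups on the OpenArray. Cyp1b1 counted from 0.1 µg/kg at 1.95 and stood at 4.53 at 1 µg/kg, while its corn oil groups reached 5.05. Ahrr had no value at 0.1 µg/kg and stood at 1.53 at 1 µg/kg, while its corn oil groups reached 2.29. The other responding battery genes lay above their corn oil groups at their lowest 2-fold dose.

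The profiles of the battery on the OpenArray were mixed. Over all TCDD groups, dose groups included, Nfe2l2 and, in Long-Evans, Ahrr ranked the groups much as Cmkor1 did. On the 7900HT this was not seen, with Spearman's rho of -0.15 for Nfe2l2 and -0.20 for Ahrr in Long-Evans, and 0.04 for Nfe2l2 in Han/Wistar. Over time, Cyp1a1 and Tiparp stood close to their late values by 19 h. In the authors' deposited table of the OpenArray, Cyp1a1 in Long-Evans liver stood at 7.85 (3 h), 9.47 (19 h) and 9.29 (240 h), so at 3 h it was within 2 log2 units of its later values, when Cmkor1 stood at 1.95. Tiparp stood at 2.50 (3 h), 3.11 (19 h) and 3.75 (240 h) in Long-Evans liver in the authors' deposited table. Cyp1b1, a cytochrome P450 that acts on oestradiol, stood at 2.81 (3 h), 9.60 (19 h) and 12.28 (240 h) in Long-Evans liver in the authors' deposited table. Among the battery genes, 2 of 9 exceeded their 19 h value by more than 2 log2 units at 240 h in each strain, Ahrr and Cyp1b1, where 10.2% of all 49 targets did so in Long-Evans and 8.16% in Han/Wistar. The median difference of the battery was 1.12 in Long-Evans and 0.37 in Han/Wistar, and that of Cmkor1 was 5.05 and 3.20. On the OpenArray, the late differences of Ahrr and Cyp1b1 were at least as large in Han/Wistar as in Long-Evans. Ahrr had 3.83 in Long-Evans and 5.62 in Han/Wistar, and Cyp1b1 had 2.68 in Long-Evans and 2.82 in Han/Wistar. That of Cmkor1 was larger in Long-Evans, which was not particular to it. Nqo1 (1.97 in Long-Evans against 0.51 in Han/Wistar), Aldh3a1 (1.20 against 0.15) and Nfe2l2 (1.03 against 0.52) went the same way. So did Tiparp (0.64 against 0.35), Ugt1a1 (1.12 against 0.37) and Ahr (1.64 against 0.13), whereas Cyp1a1 and Cyp1a2 did not. The contrast with Cyp1b1 did not hold on the 7900HT, where Cyp1b1 had 7.90 in Long-Evans and 2.69 in Han/Wistar. Cmkor1 had 4.99 and 2.95 there. The 240 h difference of Ahrr on the 7900HT is not given here. Its difference of 96 h from 19 h there was 8.97 in Long-Evans, the largest of 38 targets. In Han/Wistar, Ahrr was not among the 3 largest of 39, the third of which was 2.42. Whether any of these differences between genes exceeds the error was not tested, because each rests on 1 value per group. Ahr itself stood at 2.03 (96 h) and 2.20 (240 h) in Long-Evans liver and at 0.69 and 0.05 in Han/Wistar liver in the authors' deposited table of the OpenArray. On that platform the receptor transcript was thus also higher late in Long-Evans. Over the Long-Evans TCDD groups, Spearman's rho of Ahr with Cmkor1 was 0.85 on the OpenArray and -0.11 on the 7900HT.

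**Figure D4:**
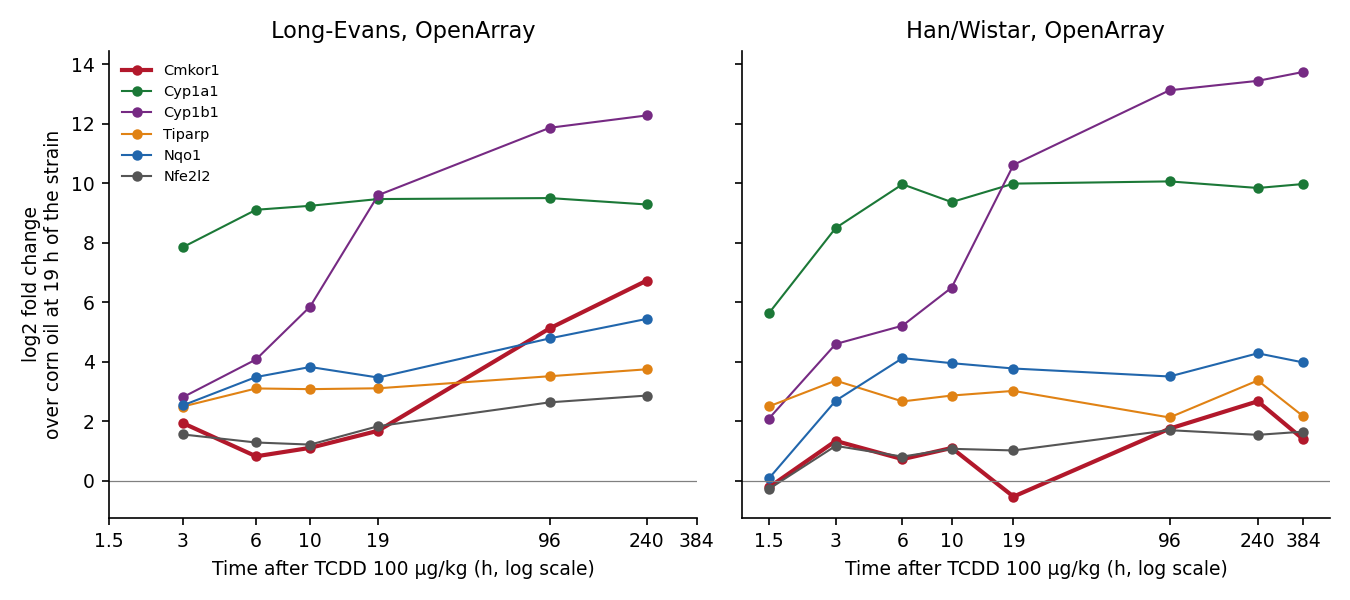
Log2 fold change over corn oil at 19 h (vertical) against hours after 100 µg/kg TCDD (horizontal, log scale) for Cmkor1 and 5 genes of the AHR battery, from the authors' deposited table. Each point is 1 deposited group value. Cyp1a1 stands at 9.11 at 6 h and 9.29 at 240 h in Long-Evans, while the thick Cmkor1 line stands at 1.69 (19 h) and 6.73 (240 h) there.

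Likeness to Cmkor1 was taken as Spearman's rho over the 13 TCDD groups of Long-Evans and the 15 of Han/Wistar on the OpenArray, ranked by the lower of both. The groups share their corn oil baseline and their normalization, so these values describe profiles and carry no p. The 5 most alike were Nfe2l2, the oxidative stress factor and a member of the AHR battery (rho 0.93 in Long-Evans and 0.80 in Han/Wistar), Pde2a, a cyclic nucleotide phosphodiesterase (0.85 and 0.80), Ccbl1, a kynurenine aminotransferase (0.81 and 0.76), Perp, a membrane protein induced by p53 (0.86 and 0.72), and Uvrag, an autophagy gene (0.81 and 0.72). Ahrr, also of the battery, had rho of 0.98 in Long-Evans (12 groups) and 0.69 in Han/Wistar (14 groups), ranking 7. On the 7900HT its rho was -0.20 in Long-Evans and 0.57 in Han/Wistar. The size of the 5 most alike was smaller than that of Cmkor1. In Long-Evans at 240 h they stood at 2.87, 2.01, 2.31, 2.23 and 1.25 in the authors' deposited table, against 6.73 for Cmkor1. On the 7900HT, Pde2a, Ccbl1, Perp and Uvrag had rho of 0.79, 0.96, 0.97 and 0.81 in Long-Evans. In Han/Wistar they had 0.71, 0.90, 0.66 and 0.60, while Nfe2l2 had -0.15 in Long-Evans and 0.04 in Han/Wistar. The median over all 38 targets there was 0.38 in Long-Evans and 0.27 in Han/Wistar. A rho at or above that of Pde2a was reached by 13 of them in Long-Evans and 6 in Han/Wistar. In Long-Evans the values of Pde2a and Uvrag thus did not set these genes apart, while those of Perp and Ccbl1 were the highest of all. In Han/Wistar neither of the latter was the highest. These 7900HT values were not centred, and many targets on that platform stood low in the same groups at 19 h. Gfer, with rho of -0.03 in Long-Evans on the OpenArray, had 0.83 on the 7900HT.

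The least alike were Hagh, a glyoxalase (-0.87 in Long-Evans and -0.54 in Han/Wistar), Slco1a1, a hepatic uptake transporter (-0.80 and -0.29), and Fmo1, a flavin monooxygenase (-0.80 and -0.52). Fmo1 stood at -0.74 (19 h), -2.36 (96 h) and -5.28 (240 h) in Long-Evans liver in the authors' deposited table, a late course opposite to that of Cmkor1. In Han/Wistar liver Fmo1 stood at -0.62 (19 h) and -1.96 (240 h) in the authors' deposited table. Hagh stood at -2.15 (240 h) in Long-Evans liver and at -0.81 in Han/Wistar liver in the authors' deposited table. The negative likeness was weaker in Han/Wistar for all 3 genes. For Slco1a1 and Fmo1 it was not seen on the 7900HT. There rho was 0.47 for Slco1a1 and 0.40 for Fmo1 in Long-Evans, while Han/Wistar gave -0.06 and 0.03. Hagh had no rho on the 7900HT, so its likeness could not be compared there.

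The comparison of platforms was the study's titled subject, and for Cmkor1 both gave their highest values at 96 h or later, while the level at 19 h differed. In the authors' deposited table of the 7900HT, Cmkor1 after 100 µg/kg in Long-Evans liver stood at -0.93 (3 h), -0.07 (6 h), 0.12 (10 h), 0.71 (19 h), 4.22 (96 h) and 5.70 (240 h). Long-Evans corn oil liver stood at 1.40 (96 h) and -0.80 (240 h) in the authors' deposited table of the 7900HT. The TCDD minus corn oil difference was therefore 2.82 (96 h) and 6.50 (240 h), close to the OpenArray value at 240 h and smaller at 96 h. On the 7900HT, 50% of 38 targets were at least 2-fold higher at 96 h and 48.7% of 39 (240 h), and Cmkor1 ranked 5 and 3.

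Han/Wistar liver on the 7900HT stood at -2.23 (1.5 h), -1.42 (3 h), -1.76 (6 h), 0.41 (10 h), -1.64 (19 h), 1.37 (96 h), 1.30 (240 h) and 0.66 (384 h) after 100 µg/kg in the authors' deposited table. Han/Wistar corn oil liver stood at -0.92 (1.5 h), 0.21 (96 h), 0.22 (240 h) and 0.20 (384 h) in the authors' deposited table of the 7900HT. The TCDD groups from 96 h on lay above the corn oil groups, by 1.16 (96 h), 1.09 (240 h) and 0.47 (384 h). These were smaller differences than on the OpenArray. At least 2-fold higher were 41% of 39 targets at 96 h and 38.5% (240 h), Cmkor1 among them.

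At 19 h on the 7900HT, the doses in order from 0.001 to 1000 µg/kg gave -2.10, -2.28, -2.79, -2.04, -3.24, -2.22, 0.71 and -2.17 in Long-Evans liver in the authors' deposited table. The doses from 0.001 to 3000 µg/kg gave -2.50, -2.98, -3.79, -2.45, -1.43, -1.64, -1.87 and -2.66 in Han/Wistar liver in the authors' deposited table. In both strains the corn oil group at 19 h, at 0 by construction, stood above nearly every TCDD group, and only Long-Evans at 100 µg/kg was above 0. Many other targets stood low in the same groups. Of the 25 targets with 2 rows in the raw 7900HT table, to which Cmkor1 belongs, 24 had a value in every group, and their median in Long-Evans was -2.82 (10 µg/kg), -2.23 (50 µg/kg) and 0.73 (100 µg/kg). Relative to that median, Cmkor1 in Long-Evans stood at -1.44, -0.69, -1.01, -0.70, -0.42, 0.02, -0.02 and -0.05 from the lowest dose to the highest. In Han/Wistar it stood at -1.73, -2.25, -1.70, -1.80, -0.97, -0.16, -0.75 and -0.49 in the same order. On this scale the 4 lowest doses stood below the 4 highest in both strains, and no dose stood more than 0.02 above corn oil. The part of this shared shift in the Cmkor1 values at 19 h was not tested. At 240 h, Cmkor1 stood 5.33 above the median of these targets in Long-Evans, the highest of the 25, and 2.17 above it in Han/Wistar, ranking 8.

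Across groups other than corn oil at 19 h, rho between the platforms was 0.54 in Long-Evans (15 groups) and 0.47 in Han/Wistar (19 groups). With TCDD groups alone it was 0.66 and 0.77. The 7900HT value was lower than the OpenArray value in all 28 TCDD groups, by 0.39 to 4.29 log2 units, with a median of 1.54 in Long-Evans and 2.01 in Han/Wistar. In the dose arm the median was 2.25 in Long-Evans and 2.53 in Han/Wistar, against 0.97 and 0.74 for 96 h and later. The median offset was therefore wider at 19 h than at the late times in both strains.

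**Figure D5:**
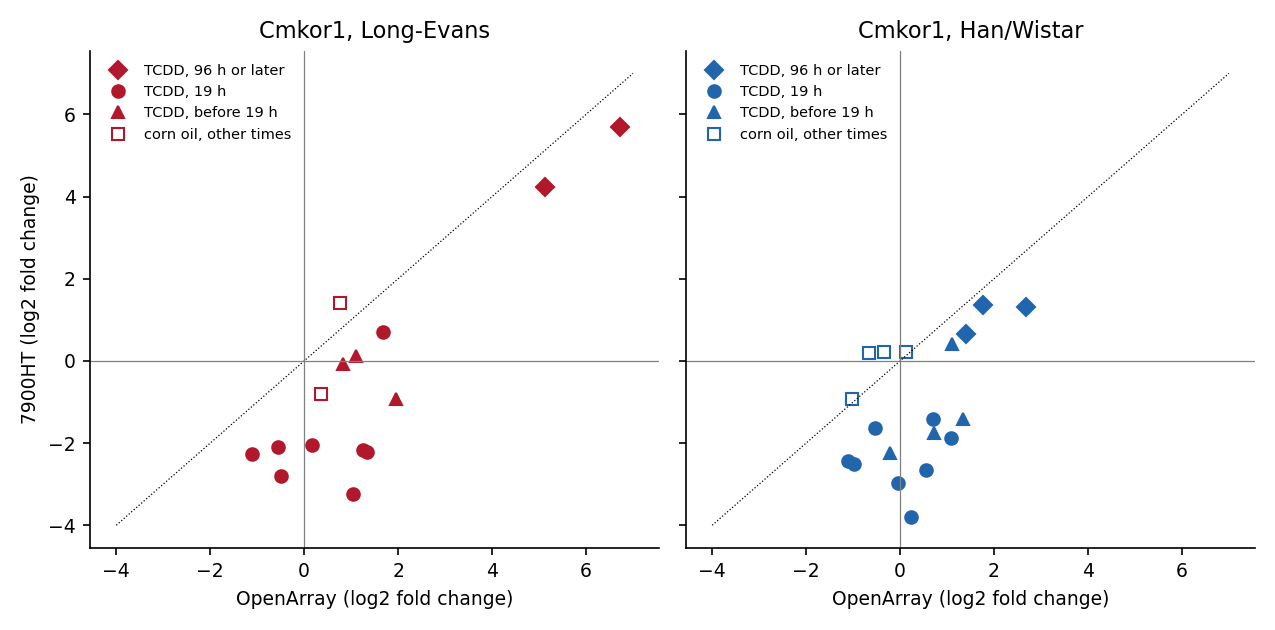
Cmkor1 log2 fold change on the 7900HT (vertical) against the OpenArray (horizontal), by strain, in the authors' deposited tables. Each point is 1 group and the dotted line marks equal values. Diamonds, the TCDD groups at 96 h and later, lie a median of 0.97 (Long-Evans) and 0.74 (Han/Wistar) below the line, and circles, the TCDD groups at 19 h, 2.25 and 2.53.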

How the data were processed

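Per the labels' protocols, cDNA from liver RNA was amplified by real-time PCR. Per the file headers, the deposited tables hold a gene, strain, time, dose and 1 value per group, taken as the authors' log2 fold change over the strain's corn oil group at 19 h. Which reference genes, treatment of failed wells and averaging the authors used is not given in the sources used here. R 2.12.2 was used per the submitters' processing notes. The depth (amplified molecules) behind a value is unknown. The raw tables hold 304 per-sample columns whose codes match no sample label, and only their gene and assay names were read.

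Differences between groups, ranks over all targets, Spearman's rho and interpolated doses were computed with pandas 2.3.3 and numpy 2.4.6 under Python 3.11.15, with plots by matplotlib 3.10.9, and checked on simulated data. A target counted as higher at a log2 value of 1 or more. A responding dose or time is the lowest from which all higher doses or later times reach that value. No test was made, because the gene was chosen on its values and each group has 1 value. All 50 gene names matched RefSeq for GRCr8, 3 of them, Cmkor1 included, as older symbols. The text names Cmkor1, the listed AHR genes, and the 5 targets most and 3 least like Cmkor1, plus Scn4b and the promoters with at least 3 motif copies, named after their values were seen. The gene and the lists were chosen with earlier results of these data known. Alternatives were centring on the group mean or median, the 7900HT, corn oil of the same time, other fold thresholds, other groups and Pearson's r. Centring 7900HT values on targets with 2 raw rows, and all settings of the difference between 240 h and 19 h, were chosen after seeing the data.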

Additional observations from a re-analysis of the deposited data

How the results depend on the processing

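No paired analysis was possible because each group has 1 deposited value. A log2 value of 1 group was taken as moved when it changed by at least 1 standard deviation of the corn oil groups. For differences between groups the limit was wider, and doses, rho and counts of targets had limits of their own. Centred on the group mean, Cmkor1 at 100 µg/kg stood at 5.31 (Long-Evans) and 1.66 (Han/Wistar) at 240 h and at 0.70 and -1.38 at 19 h, and the 50% dose in Long-Evans was 9.36 µg/kg. Centred on the group median, Long-Evans stood at 5.94 at 240 h and 1.12 at 19 h. On the 7900HT the values were 5.70 and 1.30 at 240 h and 0.71 and -1.64 at 19 h, with a 50% dose of 91.9 µg/kg. Centred on the 2-row targets of the 7900HT, they were 5.33 and 2.17 at 240 h, and Long-Evans at 19 h turned to -0.020; the strain difference was 3.16 at 240 h and 0.14 at 19 h, and the Han/Wistar difference of 240 h from 19 h was 2.33. At 96 h in place of 240 h that difference was 3.44 in Long-Evans and 2.28 in Han/Wistar, and with 10 h in place of 19 h it was 5.62 and 1.57. Between platforms, Long-Evans had Pearson's r of 0.87, rho of 0.76 centred on the median, 0.79 with 4-row and 2-row targets centred apart and 0.66 with TCDD groups, and Han/Wistar rho of 0.85 at 1 µg/kg or more and 0.77 with TCDD groups. Leaving out 1 group at a time gave rho of 0.44 to 0.63 in Long-Evans and 0.38 to 0.55 in Han/Wistar. By these rules 31 other settings did not count as moved. The direction at 240 h and of the 240 h strain difference held in every setting run; the cause of the shifts was not tested. No responding dose was found in Long-Evans at 4-fold, after either centring or on the 7900HT, nor in Han/Wistar in any setting, so those gave no value; the Han/Wistar 50% dose existed only with the highest value as maximum, 8.21 µg/kg. In Long-Evans, 1 of the 5 most alike targets stayed with Pearson's r. Leaving out 1 TCDD group kept 3 to 5 of the 5 in each strain.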

Other observations

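In Long-Evans corn oil liver, Cmkor1 at 96 h stood at 1.40 on the 7900HT, the highest of 39 targets, and at 0.76 on the OpenArray, 6 of 49, in the authors' deposited tables. Neu1, a lysosomal sialidase, had a wider strain gap than Cmkor1 in the difference of 240 h from 19 h, 1.48 in Long-Evans against -0.68 in Han/Wistar on the OpenArray, a gap of 2.16 against 1.84 for Cmkor1; Neu1 was chosen after its values were seen. In Han/Wistar, Cmkor1 was lower at 384 h than at 240 h by the authors' deposited tables of both platforms, 1.41 against 2.67 on the OpenArray and 0.66 against 1.30 on the 7900HT; no Long-Evans group at 384 h is analysed here.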
